A study of Zea mays with 8 samples.

Results

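The 150 genes described here have the highest values in the well-watered maize ovary among genes that are listed for the leaf meristem, but only at a low level. Genes not listed for the leaf could not be chosen, and for some of the 150 the ovary value cannot be assigned, as given below. The 150 were chosen by their measured levels. A gene had to be listed in both deposited tables, to stand under 1 FPKM in all 4 leaf libraries and to be above 0 in both well-watered ovary libraries. FPKM scales the fragments of a gene by its length and by the size of the library, so levels can be compared between genes. Of 23586 gene IDs in both tables, 2024 met these conditions, and the 150 with the highest value in their lower control library were taken, out of 28667 IDs in the series. The low leaf level and the high control level are thus the choice itself and are given without a test. The change under drought is described below.

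The 8 RNA sequencing libraries are all from greenhouse plants of B73, an inbred maize line. Ovaries and the basal meristem of the 3 youngest leaves were collected 24 hours after hand pollination, from plants kept well watered or from plants left without irrigation for 2 to 3 days before pollination. Each of the 4 groups has 2 libraries. The sample labels number 2 replicates a group, while the series text speaks of 1 biological replicate for each condition, and neither says that the libraries of a group stem from different plants. The p-values therefore reflect only how far these libraries differ, which may be technical, and the 2 libraries of a group may not be 2 biological replicates. The series text calls the control sample ovaries or cob and the drought sample ovary tissue, and gives no share of cob in either. These are bulk tissue samples, so fewer cells of a type and less RNA per cell cannot be told apart.

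The maize ear carries florets in which floral organ identity is set by MADS-box transcription factors, among them AGAMOUS-type genes that act in the carpel. The carpel forms the ovary wall and the silk, and encloses the ovule in which fertilization takes place. At the time of pollination the ovary grows by cell division and expansion. Withholding water at this stage is known to stop ovary growth and to cause kernel abortion in maize.

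A pair of features of the tables bears on how these genes are read. First, every ID listed has a value above 0 in at least 1 library of its table, so an ID at 0 throughout the leaf is not in the leaf table and could not be chosen. In the ovary table, 454 IDs that are not in the leaf table had both controls at or above the level of the last of the 150 genes (7.73 FPKM), and they are described separately below. Second, 15 of the 150 (10%) carry 4 ovary values that equal those of another ID to every printed digit, against 4.05% of all ovary IDs, while none of the 150 shares its 4 leaf values with another ID. Of these 15, 6 form 3 pairs within the list, 2 are paired with IDs that are not in the leaf table, and 7 are paired with an ID that stood at 1 FPKM or more in all 4 leaf libraries. For those 7 the ovary value cannot be assigned to the member rather than to its partner, so their restriction to the ovary is not shown. They include the first-ranked gene, GRMZM2G052175, whose partner GRMZM2G051943 was at 3.63 to 18.2 FPKM in the leaf, and GRMZM2G123776, whose partner GRMZM2G048324 was at 65.0 to 95.5 FPKM there. Among 167 pairs of IDs with equal ovary values that each match 1 RefSeq gene, 88 match the same gene and 70 lie on the same chromosome with at most 5 genes between them in the RefSeq order.

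By their sums, carpel markers were higher in the ovary and photosynthesis markers in the leaf, while the pigment markers were not confined to the ovary. The 5 carpel MADS-box genes matched by name summed to 483 and 408 FPKM in the control ovaries and to 299 and 376 FPKM under drought, and 4 of them are not in the leaf table. Among the 5, zmm2 (GRMZM2G492156) was near the floor, at 0.616 and 0.664 FPKM in the control ovaries. Under drought zmm2 was higher, at 1.43 and 1.66 FPKM, unlike the sum. Of the 12 photosynthesis genes, the 11 listed for the leaf summed to between 12928 and 17655 FPKM there. Among them Pep1 (GRMZM5G899080) went the other way, at 3.76 to 5.06 FPKM in the leaf and 16.6 and 18.7 FPKM in the control ovaries. In the ovary all 12 summed to 588 and 1059 FPKM in the controls and to 141 and 128 FPKM under drought, where lhcb3 was listed at 0. The 5 genes of silk and pericarp pigment summed to between 144 and 421 FPKM in the leaf libraries. In the ovary they summed to 1351 and 2223 FPKM in the controls and to 3.43 and 3.74 FPKM under drought. Of these, A1, p1, sm2 and c2 were listed at 0 in both drought libraries. The photosynthesis and pigment markers therefore moved with watering in the same libraries as the genes described here, and their part in the results was not tested. No pollen marker was matched by name. Only zpu1 was matched by name for the endosperm, and whether it marks that tissue was not tested. Its control ovary values were 4.40 and 2.89 FPKM, and its drought ovary values were 0.961 and 0.193 FPKM. For zpu1 the leaf controls gave 0.395 and 0.886 FPKM, and the leaf drought libraries gave 0.484 and 3.47 FPKM. The gene zpu1 was thus not confined to the ovary.

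In the well-watered ovary the 150 genes spanned a steep range. The first-ranked GRMZM2G052175 stood at 481 and 451 FPKM in the controls, 9 genes had both controls at 50 FPKM or more, 30 at 20 or more and 108 at 10 or more. The median was 13.5 FPKM in control 1 and 13.7 FPKM in control 2, against a leaf median of 0.480 and 0.245 FPKM in the leaf controls and 0.425 and 0.494 FPKM in the leaf drought libraries. Together the 150 genes made up 0.493% and 0.463% of the summed FPKM of the control ovaries. The sum of control 2 leaves out 2 IDs with extreme values, neither of them a member. Over all IDs the share in control 2 is therefore lower than given. No ID was left out of the sum of any other library. The controls were close for most genes, with a median ratio of the higher to the lower of 1.18. The exception past 2-fold was GRMZM2G028159, at 49.7 FPKM in control 1 and 10.5 FPKM in control 2. At the edge of the list, GRMZM2G102163 (7.93 and 8.50 FPKM) and the kinesin gene kin11 (GRMZM2G436981, 9.29 and 7.73 FPKM) were the last inside, and the cell cycle kinase gene wee1 (GRMZM5G878541, 8.77 and 7.73 FPKM) and GRMZM2G167786 (7.68 and 9.93 FPKM) were the first outside.

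**Figure D1:**
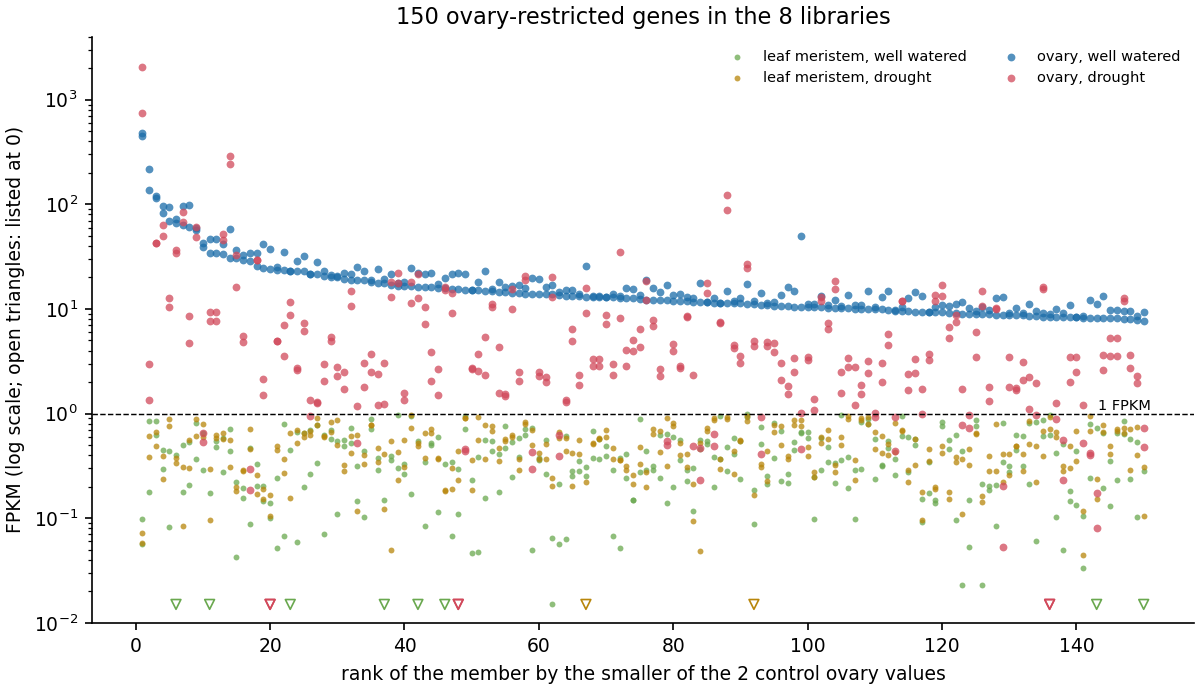
FPKM on a log scale of the 150 genes in each of the 8 libraries, ordered by the lower of the 2 control ovary values, with open triangles for values listed at 0 and a dashed line at 1 FPKM, the leaf limit of the choice. Most drought ovary points lie below the controls, 19 genes have both drought points under 1 FPKM, and both drought points of gt1 and GRMZM2G078077 stand far above their controls.

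Under drought most of these transcripts were lower. The median level was 3.48 FPKM in drought 1 and 2.86 FPKM in drought 2, and over the genes the median drought mean was 23.1% of the control mean. In 31 genes less than 10% of the control mean was left, in 50 from 10 to 25%, in 26 from 25 to 50%, in 25 from 50 to 100%, and in 18 the drought mean was at or above the control mean. Over all 23770 ovary genes tested, 1128 had less than 10% left and 11129 were at or above the control mean. Their median was 95.1% of the control mean. Both drought libraries lay below both controls in 120 of the 150 genes, against 42.2% of all 23770 ovary genes tested, and above both controls in 15, against 37.8%. In the limma fit over all ovary genes, on log2(FPKM + 1) and with Benjamini-Hochberg adjustment, 117 of the 150 were called lower at an adjusted p under 0.05 and 6 higher. The background over all genes tested was 29.5% called lower and 23.6% called higher, so the share of the members called lower, 78.0%, was above it and the share called higher, 4.0%, below it. Over all genes the balance turned under quantile normalization, with 6206 lower and 6657 higher against 7004 and 5614, and without drought 2 the counts were 3543 and 2257. All 150 passed the filter of a mean of at least 1 FPKM, which their controls alone secured.

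Among the 13838 other ovary genes whose controls were at least as high as those of the last member, 33.9% were called lower and 20.4% higher, and 1.29% had a listed 0 in both drought libraries. Both drought libraries lay below both controls in 47.0% of them and above in 33.9%, and their median log2 change was -0.15. The median over the 150 genes was -1.81, with quartiles at -2.53 and -0.65. The controls served both to choose the genes and to measure their change. When genes were ranked by control 1 alone and the change was measured from control 2, the median was -1.74, and with the roles of the controls exchanged it was -1.90. Both controls still had to be above 0, and they may not be separate biological replicates. These medians therefore cannot show how far the choice affects the change. Without the 15 IDs with equal ovary values the median was -1.85, with 106 of 135 called lower and 5 higher. This alternative was chosen after seeing the data. Calls were spread over the ranks. The median log2 change was -2.20 over the first 50 ranks, -1.78 over the next 50 and -1.68 over the last 50, with 37, 40 and 40 genes called lower. Of the 117 genes called lower, 105 had a log2 change of -1 or below, 66 of -2 or below and 21 of -3 or below. The 27 uncalled genes had log2 changes between -0.62 and 0.53, and in 15 of them the conditions overlapped.

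**Figure D2:**
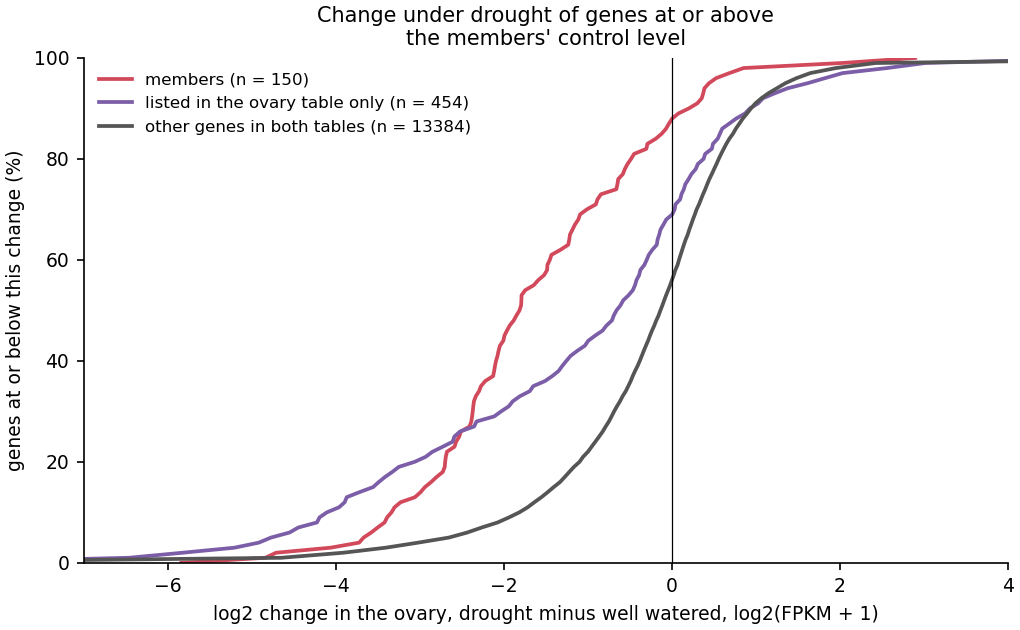
Share of genes (%) at or below a given log2 change in the ovary, drought minus well watered on log2(FPKM + 1), for the 150 members, for the 454 IDs of the ovary table only and for the 13384 other genes in both tables, all with both controls at 7.73 FPKM or more. At the median the curve of the members lies to the left of the other genes in both tables, at -1.81 against -0.14. The IDs listed in the ovary table only have a median of -0.66.

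RefSeq gene names were available for 19 of the 150 genes, and 107 matched a RefSeq gene of any kind. Of the 19, 15 were called lower, gt1 was called higher, and 3 were not called. Floral and inflorescence regulators are given first. DL1 (GRMZM2G088309), a YABBY transcription factor gene whose rice counterpart specifies the carpel, was at 115 and 121 FPKM when watered, and its drought values were 42.9 and 43.1 FPKM. The libraries of each condition were nearly equal, and the fall was called at -1.43 ± 0.14 on the log2 scale (SE, 2 libraries a condition, limma adjusted p = 0.000662). ZAG1 (MADS37, GRMZM2G052890), an AGAMOUS-type MADS-box gene that makes ear florets determinate, was at 96.3 and 83.1 FPKM in the controls, and drought libraries gave 49.9 and 63.0 FPKM. The groups did not overlap, and the log2 change of -0.66 ± 0.18 passed limma (adjusted p = 0.0245) with all 4 libraries. Without 1 library it was not called, at adjusted p = 0.141 without control 1, 0.0918 without control 2, 0.141 without drought 1 and 0.0676 without drought 2.

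The MADS-box gene m31 (zmm31, GRMZM2G071620) had 34.3 and 25.7 FPKM in the controls and 29.5 and 29.6 FPKM under drought, with both drought values between the controls and no call (log2 change -0.01 ± 0.19, limma adjusted p = 0.985). The SBP-box genes gave lower values under drought. The gene ub3 (GRMZM2G460544), which limits the kernel rows of the ear, was at 10.1 and 13.6 FPKM in the controls. Under drought ub3 was at 3.41 and 2.80 FPKM (log2 change -1.64 ± 0.22, limma adjusted p = 0.00193). Without drought 2 it was not called, with a log2 change of -1.53. The gene tga1 (GRMZM2G101511), which shapes the glume around the kernel, was at 9.89 and 13.0 FPKM and then at 2.00 and 3.05 FPKM, a difference of -1.82 ± 0.24 on the log2 scale (limma adjusted p = 0.00188).

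The gene gt1 (grassy tillers1, GRMZM2G005624) went the other way. It encodes a homeodomain leucine zipper factor that restrains the growth of axillary buds and of carpels in tassel florets. It was at 57.7 and 30.8 FPKM when watered and 241 and 292 FPKM in drought, 602% of the control mean. The drought libraries were far above both controls, with a log2 change of 2.62 ± 0.31 (limma adjusted p = 0.00122, and 0.0541 without drought 2, where the log2 change was 2.48). In the leaf it stayed under 1 FPKM with and without drought, as the choice requires.

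**Figure D3:**
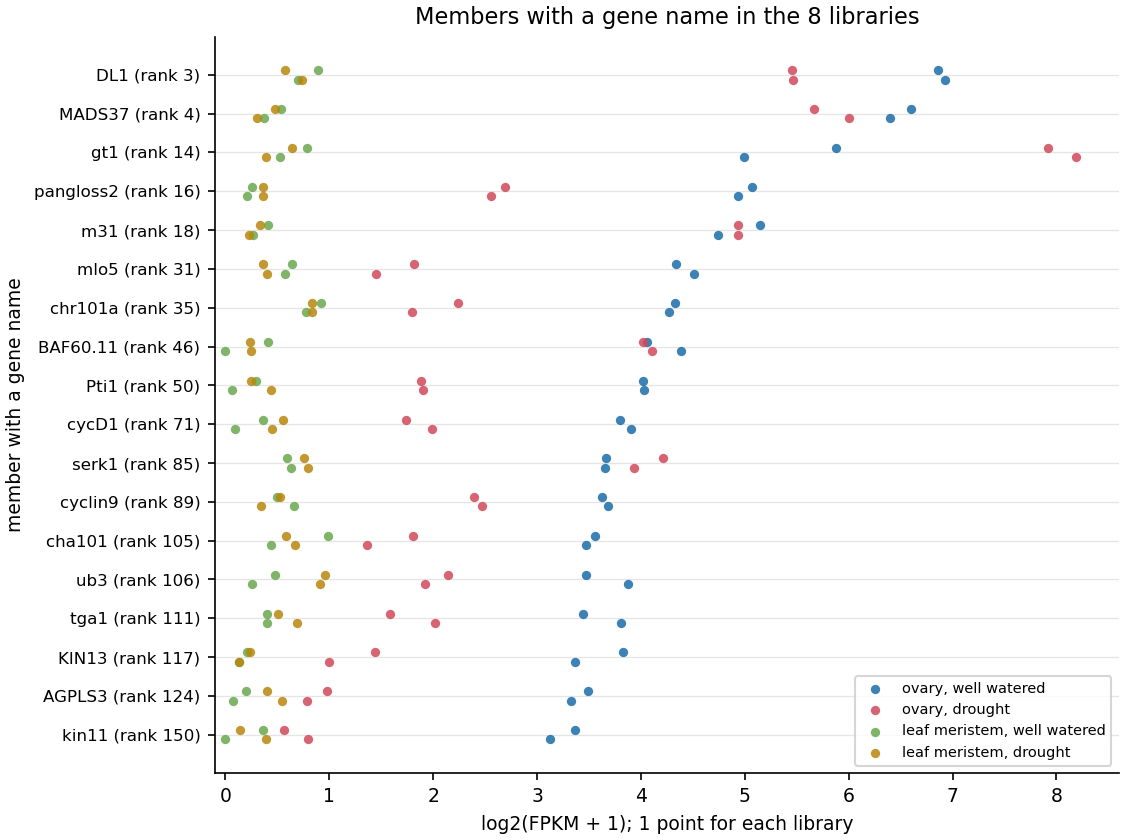
Level on log2(FPKM + 1) of 18 of the 19 members with a RefSeq gene name, 1 point for each of the 8 libraries, ordered by rank. Drought ovary points lie to the left of the control points for 14 genes and to the right for gt1 and serk1, and for m31 and BAF60.11 they overlap the controls.

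Among the members with a gene name are several of receptors and signalling, grouped here by their names with no test of the group. Transcripts of pangloss2 (GRMZM2G034572), a leucine-rich repeat receptor-like protein that polarizes the mother cells of stomatal subsidiary cells, went from 32.5 and 29.7 FPKM to 5.46 and 4.89 FPKM, or -2.38 ± 0.17 on the log2 scale (limma adjusted p = 0.000241). The gene mlo5 (GRMZM2G471142) belongs to a family of membrane proteins known from powdery mildew susceptibility in barley, and was at 19.2 and 21.8 FPKM in the controls and at 2.51 and 1.74 FPKM under drought (log2 change -2.79 ± 0.21, limma adjusted p = 0.00029). The kinase gene Pti1 (GRMZM2G378547), named for a tomato kinase of disease resistance, was at 15.2 and 15.3 FPKM and then at 2.70 and 2.74 FPKM (log2 change -2.13 ± 0.17, limma adjusted p = 0.000358). In each of these 3 genes both drought libraries were far below both controls. The receptor kinase gene serk1 (GRMZM5G870959), of the somatic embryogenesis receptor kinase family, did not follow them. Each control read 11.6 FPKM, and the drought libraries read 17.6 and 14.2 FPKM, higher but not called (log2 change 0.42 ± 0.18, limma adjusted p = 0.095).

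The next members, also grouped by name only, are 2 cyclin genes, 2 kinesin genes and 1 gene of starch synthesis. The D-type cyclin gene cycD1 (GRMZM2G006721), of entry into the cell cycle, stood at 12.9 and 14 FPKM when watered and 2.33 and 2.96 FPKM in drought (log2 change -1.99 ± 0.19, limma adjusted p = 0.000618). The gene cyclin9 (GRMZM2G017081) kept more of its level, at 11.3 and 11.8 FPKM and then at 4.24 and 4.53 FPKM (log2 change -1.22 ± 0.17, limma adjusted p = 0.00238). Both drought values of each cyclin gene lay below both controls. Of the kinesin genes, whose products move along microtubules, KIN13 (krp13, GRMZM2G034828) was at 13.2 and 9.34 FPKM and then at 1.71 and 0.992 FPKM, a log2 change of -2.38 ± 0.26. The other, kin11, kept 0.474 and 0.730 FPKM in the drought libraries, with a log2 change of -2.57 ± 0.20, and shares its ovary values with GRMZM2G135897, which is not in the leaf table. Both kinesin falls were called (limma adjusted p = 0.000932 and 0.000337). AGPLS3 (GRMZM2G144002), a large subunit of the ADP-glucose pyrophosphorylase that makes the starch precursor, went from 10.2 and 9.03 FPKM to 0.964 and 0.728 FPKM, so that 8.78% of its control mean remained.

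The gene BAF60.11 (GRMZM2G148198), named for a subunit of chromatin remodelling complexes, was at 15.7 and 19.9 FPKM when watered, and 15.3 and 16.2 FPKM were measured in drought. The conditions overlapped and no change was called (limma adjusted p = 0.483). Its ovary values are also those of AC233967.1_FG001, which was at 24.6 to 35.1 FPKM in the leaf. The genes chr101a (GRMZM2G071025) and cha101 (GRMZM2G177165) were called lower, with 16.6% and 19.5% of the control mean left.

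On the log2(FPKM + 1) scale, and leaving aside members listed at 0, the 5 largest called falls were in genes that RefSeq does not name beyond a locus number, or does not match. GRMZM2G409312, second in rank, was at 137 and 219 FPKM in the controls and at 2.99 and 1.33 FPKM under drought. That is 1.21% of the control mean, with a log2 change of -5.84 ± 0.34 (limma adjusted p = 0.000135). The order depends on the pseudocount, since at 0.1 FPKM the log2 change was -6.37 for GRMZM2G409312 and -6.55 for GRMZM2G076905, which kept 0.767% of its control mean. GRMZM2G341959 was at 39.3 and 42.3 FPKM and then at 0.530 and 0.650 FPKM (log2 change -4.72 ± 0.18, limma adjusted p = 5.28e-05). GRMZM2G076905 was at 34.2 and 29.0 FPKM and then at 0.298 and 0.187 FPKM, which is within the leaf range of 0.0887 to 0.709 FPKM of the same gene (log2 change -4.71 ± 0.19, limma adjusted p = 5.89e-05). In these 3 genes the drought libraries were lower than either control by more than an order of magnitude. GRMZM2G002034 had a log2 change of -3.72 ± 0.22 and GRMZM2G028159 one of -3.81 ± 0.67. The latter is the gene whose controls differ most, and without drought 1 or drought 2 it was not called (limma adjusted p = 0.0856 and 0.112). Among the 10 top-ranked genes, GRMZM2G121210 (98.5 and 61.0 FPKM, then 8.57 and 4.68 FPKM) and GRMZM2G080731 (69.0 and 93.4 FPKM, then 12.7 and 10.3 FPKM) were also called lower, and GRMZM2G053466 by less, at 72.1 and 66.5 FPKM and then 36.3 and 34.3 FPKM (log2 change -0.95 ± 0.14).

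Listed at 0 in both drought libraries were 3 genes, 2.0% of the list against 1.51% of all ovary genes tested. GRMZM2G479068 stood at 37.5 and 24.0 FPKM in the controls, GRMZM2G122853 at 15.4 and 22 FPKM and GRMZM2G367701 at 8.90 and 8.36 FPKM. A listed 0 can be a missing estimate, so no fold is given. The first of them has the same 4 ovary values as GRMZM2G147191, which was at 62.1 to 79.0 FPKM in the leaf, so its ovary level cannot be assigned to it. In all, 19 of the 150 genes were under 1 FPKM in both drought ovaries, the limit used for the leaf, while 121 stayed at 1 FPKM or more in both and 39 stayed at or above 7.73 FPKM. No share over all ovary genes is given for these counts.

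Transcripts of 6 members were called higher. GRMZM2G078077 rose most, from 11.4 and 14.9 FPKM in the controls to 88.1 and 122 FPKM under drought (log2 change 2.90 ± 0.22, limma adjusted p = 0.000315), and it was followed by gt1. GRMZM2G052175, the most abundant of the list, was at 754 FPKM in drought 1 and 2035 FPKM in drought 2, so that the drought libraries differed more from each other than drought 1 did from the controls. Its log2 change of 1.41 ± 0.46 passed narrowly (limma adjusted p = 0.0449). It was not called without drought 2 (log2 change 0.70, adjusted p = 0.0963), without control 1 (adjusted p = 0.243) or without control 2 (0.278), nor at a pseudocount of 0.1 FPKM (0.0518). The other 3 rose by less than 2-fold. GRMZM2G179777 was at 9.17 and 8.45 FPKM and then at 16.4 and 15.6 FPKM (log2 change 0.79 ± 0.16, limma adjusted p = 0.00943), GRMZM2G042323 had a log2 change of 0.84 ± 0.23 (adjusted p = 0.0251) and GRMZM2G327247 one of 0.57 ± 0.18 (adjusted p = 0.0448). None of these 3 was called without control 2, drought 1 or drought 2, with limma adjusted p between 0.0636 and 0.23 over those alternatives. GRMZM2G327247 was also not called without control 1 (adjusted p = 0.0906) or with the replicate number as a block (0.0546).

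Several abundant members had drought values close to their controls. GRMZM2G396169 was at 97.2 and 63.3 FPKM in the controls and at 68.1 and 83.6 FPKM under drought, with both drought values inside the control range (log2 change -0.06 ± 0.24). GRMZM2G068476 was at 57.0 and 59.5 FPKM and then at 60.9 and 48.5 FPKM (log2 change -0.10 ± 0.17). With m31, the smallest differences of the list were in GRMZM2G103546 (-0.02 ± 0.29), GRMZM2G396169, GRMZM2G177150 (-0.07 ± 0.22) and GRMZM2G043242 (0.07 ± 0.25), none of them called, with limma adjusted p from 0.803 to 0.985. A difference that misses the threshold does not show that the level was the same. Between the drought libraries the median ratio of the higher to the lower was 1.29, against 1.18 between the controls. Ranking by the lower control favours genes whose controls agree, and drought levels were lower, so these ratios do not show which condition varied more. In 19 genes the drought libraries differed by more than 2-fold, among them GRMZM2G113191 at 8.26 FPKM in drought 1 and 35.3 FPKM in drought 2. Drought 2 was the lower library in 95 genes and the higher in 52.

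The first gene weighs most in the sum of drought 2, to which it gives 2035 of 3551 FPKM. With GRMZM2G052175 the 150 genes summed to 3482 and 3397 FPKM in the controls and to 2164 and 3551 FPKM under drought. Without it they summed to 3001 and 2946 FPKM in the controls and to 1410 and 1516 FPKM under drought. That is 0.425% and 0.402% of the library in the controls and 0.213% in both drought libraries. The 0.402% of control 2 again leaves 2 IDs with extreme values out of the library sum, and is lower over all IDs.

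The change in the ovary was then described by the level in the leaf, across genes. Among genes in both tables with both ovary controls at 7.73 FPKM or more, the 214 whose highest leaf value was from 1 to under 2 FPKM had a median log2 change of -1.61, with 74.3% called lower, close to the -1.81 of the 150 members. The 752 genes at 2 to under 5 FPKM in the leaf had a median of -0.92, and the 5356 at 5 to under 20 FPKM one of -0.10. At 20 to under 100 FPKM the median was -0.00 over 5744 genes, and at 100 FPKM or more it was -0.46 over 1318 genes. The values of genes just above the leaf limit were thus close to those of the members. The relation is a description across genes, which share libraries and are not independent replicates, and the control level also differed between these classes, with medians from 13.5 to 113 FPKM. With a leaf limit of 0.5 FPKM the median of the top 150 was -1.43. Only 48 of the 150 members had every leaf value under 0.5 FPKM, so that list reaches below the control level of 7.73 FPKM and is not a class like those above. Over the 454 IDs that are not in the leaf table the median was -0.66, with 227 (50%) called lower, 63 (13.9%) higher and 37 listed at 0 in both drought libraries.

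**Figure D4:**
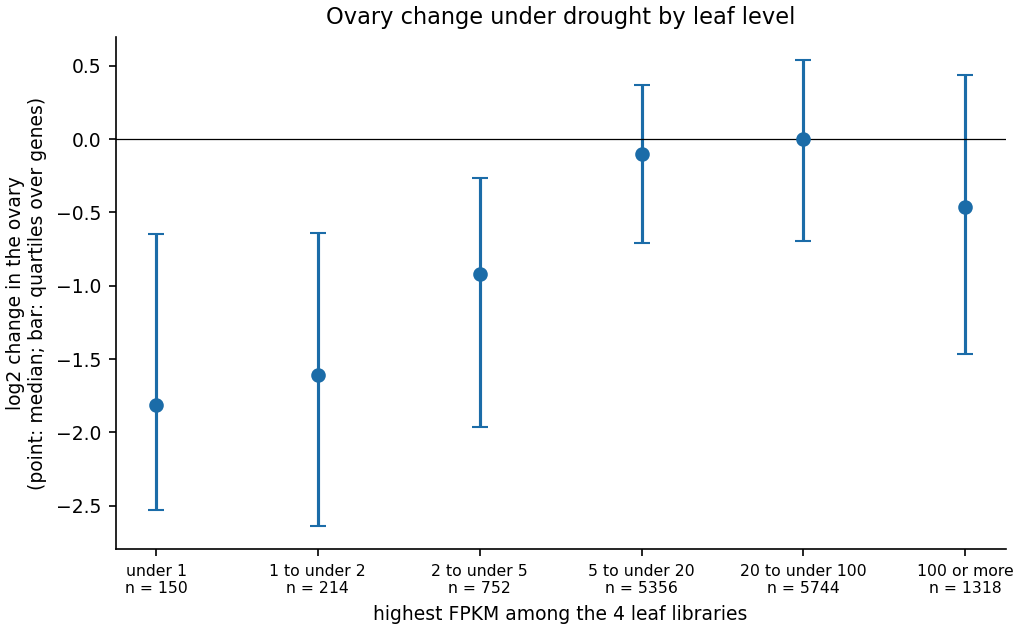
Log2 change in the ovary, drought minus well watered on log2(FPKM + 1), of genes in both tables with both controls at 7.73 FPKM or more, by their highest FPKM in the 4 leaf libraries. Points are medians and bars span the quartiles over genes. The median is -1.81 for the 150 members under 1 FPKM, -1.61 in the next class and near 0 from 5 to under 100 FPKM, with wide and overlapping quartiles.

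Ranked by the drought ovaries in place of the controls, with the same leaf limit, the top 150 genes shared 55 genes (36.7% of each list) with the 150 described here. Both lists use the same leaf libraries. The first 6 genes of the drought list included the members GRMZM2G052175, gt1, GRMZM2G078077, GRMZM2G396169 and ZAG1. Of these, GRMZM2G078077 has only rank 88 by the controls. Among the 20 top-ranked members 15 were also on the drought list. The other 95 genes of the drought list had a median control mean of 3.12 FPKM and a median drought mean of 7.95 FPKM, and 14 genes of the drought list were under 1 FPKM in both controls. The highest of them outside the 150 was GRMZM2G064283, at 6.21 and 3.91 FPKM in the controls and at 63.4 and 82.3 FPKM under drought. This list was chosen on the drought values, so its rises are a description.

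Lists of genes by name gave few members. Of 30 floral MADS-box IDs with ovary values, 13 were also listed for the leaf, and ZAG1 and m31 were the members. A further 15 reached the control level of the members but are not in the leaf table. Their controls ran from 15.8 and 12.2 FPKM for Silky1 (GRMZM2G139073) to 393 and 410 FPKM for the MADS-box gene GRMZM2G099522 (MADS7/MADS8). Over the 29 floral MADS-box IDs tested, 10 were called lower and 9 higher, with a median log2 change of -0.32. Of 39 inflorescence and meristem regulators matched by name gt1 and ub3 were members, and of the 37 tested 11 were called lower and 13 higher (median 0.12). DL1, grouped with such regulators above, was not matched by the names searched and is not in these counts. No gene of the other lists was a member. These were the flavonoid and silk flavone genes (10 of 12 tested called lower, none higher, median -5.44), cell wall enzymes (22 of 25 lower and 1 higher, median -2.52), small secreted proteins (3 of 4 lower, none higher, median -3.94), pollen and anther genes (3 of 5 lower, none higher, median -0.67), and endosperm and seed genes (5 of 13 lower and 5 higher, median 0.20). They also included drought and abscisic acid genes (4 of 34 lower and 22 higher, median 1.42) and genes of sugar transport and cleavage (5 of 12 lower and 3 higher, median -0.21). All calls are by limma over all ovary genes tested, of which 29.5% were called lower and 23.6% higher. The shares in the floral MADS-box and the inflorescence lists were near that background in the lower direction, and no list was tested against it.

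On the RefSeq order of genes the members were scattered. Of those that match 1 RefSeq gene, 4 neighbouring pairs had at most 4 genes between them. In 2 of these pairs, GRMZM2G061554 with GRMZM2G054805 and GRMZM2G331154 with GRMZM2G044858, the neighbours carry the same ovary values and count as 1 measurement. The other pairs, serk1 with GRMZM2G125233 and DL1 with GRMZM2G098714, had different values. DL1 was at -1.43 and GRMZM2G098714 at -3.22 on the log2 scale, and serk1 at 0.42 and GRMZM2G125233 at -2.70.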

How the data were processed

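The authors deposited FPKM values, with 26380 IDs for the ovary and 25873 for the leaf in separate tables. The tools listed per the submitters' processing notes are Cufflinks 1.0.2, CASAVA 1.8 and TopHat 1.2.0. What each did, the genome build, the annotation and any further scaling: not given in the sources used here. Coordinates are therefore left out. Depth per library is unknown and no counting interval can be given. The tables may have been normalized separately, so tests were made within the ovary table only.

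Columns were assigned from sample titles and the series text. limma 3.58.1 in R 4.3.3 (lmFit, eBayes with trend) was run on log2(FPKM + 1) over the 23770 ovary genes whose mean reached 1 FPKM, and fold changes on this scale understate those of low genes. The fit has 2 residual degrees of freedom and a prior of 3.74. On simulated ovary data of 23770 genes it recovered 57 of 100 genes changed by 2 and 84 of 100 changed by 3 on the log2 scale, with 8 false calls. Far fewer genes changed there than were called in the data, and variances were shuffled over genes. The changed genes were drawn only from the more abundant ones, so recovery of less abundant genes was not measured. The recovery may therefore differ in the data. Values after ± are standard errors of the fit. Names came from symbols and synonyms of the RefSeq annotation (Zm-B73-REFERENCE-NAM-5.0), which matched 16218 ovary IDs. Of the members 71.3% matched, too few for a check of gene length, and no sequences are printed. The result for 1 member with a gene name is not reported here.

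The members and lists were chosen with earlier results of these data known. Named genes were the 10 top-ranked members, the 5 largest called falls and rises not at 0 in a condition, members at 0 in both drought libraries, members with a gene name, the 5 smallest changes and the genes next to the limit. GRMZM2G327247, GRMZM2G113191, GRMZM2G064283, the neighbouring genes, the genes with equal values and their partners, the classes by leaf level and the list ranked by drought were added after values were seen. Alternatives tried were other pseudocounts, filters, scalings, a fit without trend, a joint fit, the replicate block, a 2-fold minimum, each library left out, other leaf limits, list sizes and rankings, and, added after seeing the data, lists without equal values and the IDs of the ovary table only. Where 1 library was left out, its lone partner was assumed to vary as the other condition does.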

Additional observations from a re-analysis of the deposited data

How the results depend on the processing

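Over the other fits of the same 150 genes, between 89 and 118 were called lower, and the median log2 change stayed negative under every alternative. Leaving out 1 library gave 89 to 102 called lower, 1 to 4 called higher, medians of -1.87 to -1.70, 125 to 127 genes with the drought libraries below the controls, and 5800 to 8595 calls over all ovary genes, against 12618. The median moved to -2.07 and -2.10 at pseudocounts of 0.1 and 0.01 FPKM. Quantile normalization moved it to -1.66, and that scaling also moved the median of all genes by 0.11. With a leaf limit of 0.5 FPKM it was -1.43, and with 2 FPKM -2.09. The top 75 gave 56 lower, 2 higher, 58 below the controls and a median of -2.11, and the top 300 gave 226, 13, 246 and -1.56, with 9 at 0. A 2-fold minimum left 3 called higher and 7922 calls over all genes. Ranking by control 2 with the change from control 1 gave 2 called higher and 5 at 0, and leaving out the zeros gave 0 at 0 by construction. The IDs of the ovary table only gave 227 lower, 63 higher, 272 below the controls, 37 at 0 and a median of -0.66. Where not stated, the cause was not tested. A leaf limit of exactly 0 FPKM left no gene, because such IDs are not in the leaf table. The replicate block called 118 lower and 6 higher and of the named genes changed only the call of GRMZM2G327247 (adjusted p = 0.0546). The deviations of equally numbered libraries correlated at 0.112 across genes. The labels do not say whether equal numbers mark a shared batch, and the correlation cannot decide it. No called named gene changed direction under these alternatives. Depth is unknown, and with 2 libraries in a group 1 library decided several of the weaker calls.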
